A study of Mus musculus with 4 samples.

Results

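The genes described here encode the subunits of the proteasome and the proteins that assemble, activate or inhibit it. They were taken by symbol: every gene named Psma to Psmg with a number, leaving out the interferon-inducible catalytic genes Psmb8, Psmb9 and Psmb10. This gave 46 of the 56691 genes in the tables, of which 16 encode subunits of the core particle, 9 the base and 8 the lid of the regulatory particle, and 13 encode accessory proteins. A filter on low counts left 44 of the 46, all but Psma8 and Psmb11. Poly(A) RNA was sequenced from Ter119+ cells, the erythroid fraction of mouse bone marrow, with 2 libraries labelled Med16 KO and 2 labelled Med16 fl/fl. Med16 fl/fl carries Med16 alleles flanked by loxP sites, and Med16 encodes a tail subunit of Mediator, the complex that passes signals from transcription factors to RNA polymerase II. All 4 libraries carry a time label of 3 weeks, without saying what the time is counted from, and a stage label of erythroid. The labels name neither the Cre driver nor the deleted exons. The titles of the KO libraries write DK, which is not explained. Nor do the labels say that libraries came from separate animals, so the p-values rest on a spread between libraries that may be only technical. The comparison asks what loss of Med16 changed in erythroid cells.

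The proteasome degrades proteins tagged with ubiquitin. Its core is a barrel of alpha and beta rings, the beta rings holding the proteolytic sites and the alpha rings the gate. The regulatory particle that caps the core has a base, whose ATPases unfold the substrate, and a lid, which takes off the ubiquitin. Red cell precursors are known for using this system to clear proteins as they mature, and ubiquitin-dependent breakdown was worked out in lysates of reticulocytes. Subunits are made in matched amounts, and in mammals the factor encoded by Nfe2l1 raises their genes together when proteasome activity falls short.

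Counts assigned to genes numbered 6948951 and 6749196 in the KO libraries and 7216333 and 7048208 in the fl/fl libraries. Other library measures differed with genotype. Genes with a count numbered 16892 and 16479 in KO, against 18947 and 19016 in fl/fl. Reads that did not align made up 2.69% and 3.27% in KO, against 1.05% and 0.83% in fl/fl. The part of these differences in the results below was not tested. Levels are CPM, a gene's share of a library's counts scaled to a common total, after TMM scaling. Med16 itself stood at 2.25 and 4.41 CPM in the KO libraries, against 23.2 and 18.4 CPM in the fl/fl libraries (log2 fold change -2.64, SE 0.34, adjusted p = 4.6e-05 from edgeR's quasi-likelihood test), so all 4 libraries followed their labels. Across 13052 genes tested, 18.4% were called changed at an adjusted p under 0.05, 8.50% higher and 9.89% lower in KO. Markers of the erythroid label were present at high level, the 12 listed genes summing to 186800 and 197900 CPM in KO and to 196800 CPM in both fl/fl libraries, and 8 of them were called lower and 3 higher in KO. Markers of neutrophils moved with genotype: 12 of 13 were called higher, and their sum was 19840 and 20280 CPM in KO libraries, against 14120 and 13970 CPM in fl/fl libraries. Of 8 megakaryocyte markers tested, 7 were called higher, with sums of 161 and 165 CPM in KO, against 62.6 and 53.7 CPM in fl/fl; Gp1bb had no count in any library. Of 9 monocyte and macrophage markers 2 were called higher and 1 lower, and of 9 B cell markers 1 was called higher. Of 4 T and NK cell markers tested, edgeR and DESeq2 called 0, and 1 had an unadjusted p under 0.05. The part of these other cells in the results below was not tested.

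Most proteasome genes were not called changed in Med16 KO, and the summed level of the subunits differed by less than the spread between libraries. Of the 44 tested, 5 were called (11.4%), against 18.4% of all genes tested: Psmd3 and Psmg4 were higher, and Psmd11, Psmd5 and Psme3 were lower. Before adjustment 10 had a p under 0.05, against 30.4% of all genes tested. When every gene was given a biological coefficient of variation of 0.2, Psmg4 alone stayed called. The 31 tested subunits of the core, base and lid summed to 2567 and 2580 CPM in KO libraries, against 2595 and 2562 CPM in fl/fl libraries, a ratio of 0.998 with overlapping genotypes. With library size as the only scaling the ratio was 1.04, and with any 1 library left out it lay between 0.992 and 1.005. The median size of their log2 fold change, whatever its sign, was 0.09, against 0.32 over the 12844 genes tested that had an annotation. Those include genes of low count, whose fold changes vary more by sampling. No comparison was made with genes of like level, so these medians do not show that the subunits were unusually stable. For 27 of the 31 (87.1%) the 95% interval of the fold change lay inside a 1.5-fold change either way, which held for 27.7% of all genes tested, where genes of low count have wider intervals. The 4 whose interval reached past 1.5-fold were Psmb5, Psmb6, Psmd3 and Psmd11. The share of all genes called also depended on the settings; the proteasome genes called under each are counted in the closing section. It was 18.6% with DESeq2 size factors in edgeR, 18.5% with library size as the only scaling, 11.7% with no filter, 19.6% with at least 10 counts asked of every library of a genotype, 17.9% with DESeq2, 21.2% with the replicate number as a block, 14.6% with a GC content offset, 17.9% with a transcript length offset and 4.75% with the assumed coefficient of variation. With 1 library left out it was 29.0% without KO library 1, 28.2% without KO library 2, 9.17% when fl/fl library 1 was dropped and 8.31% when fl/fl library 2 was. A fit with 1 library left out takes its spread from the other genotype alone. Its calls and adjusted p values hold no spread between libraries of the genotype left with 1. Genes not called with all libraries are therefore given by log2 fold change alone in such fits. Some of them were called there, among them Psmf1, Psmb5, Psme1 and Psme4 when a KO library was left out. In bulk RNA, fewer cells of a type and less RNA per cell cannot be told apart.

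**Figure D1:**
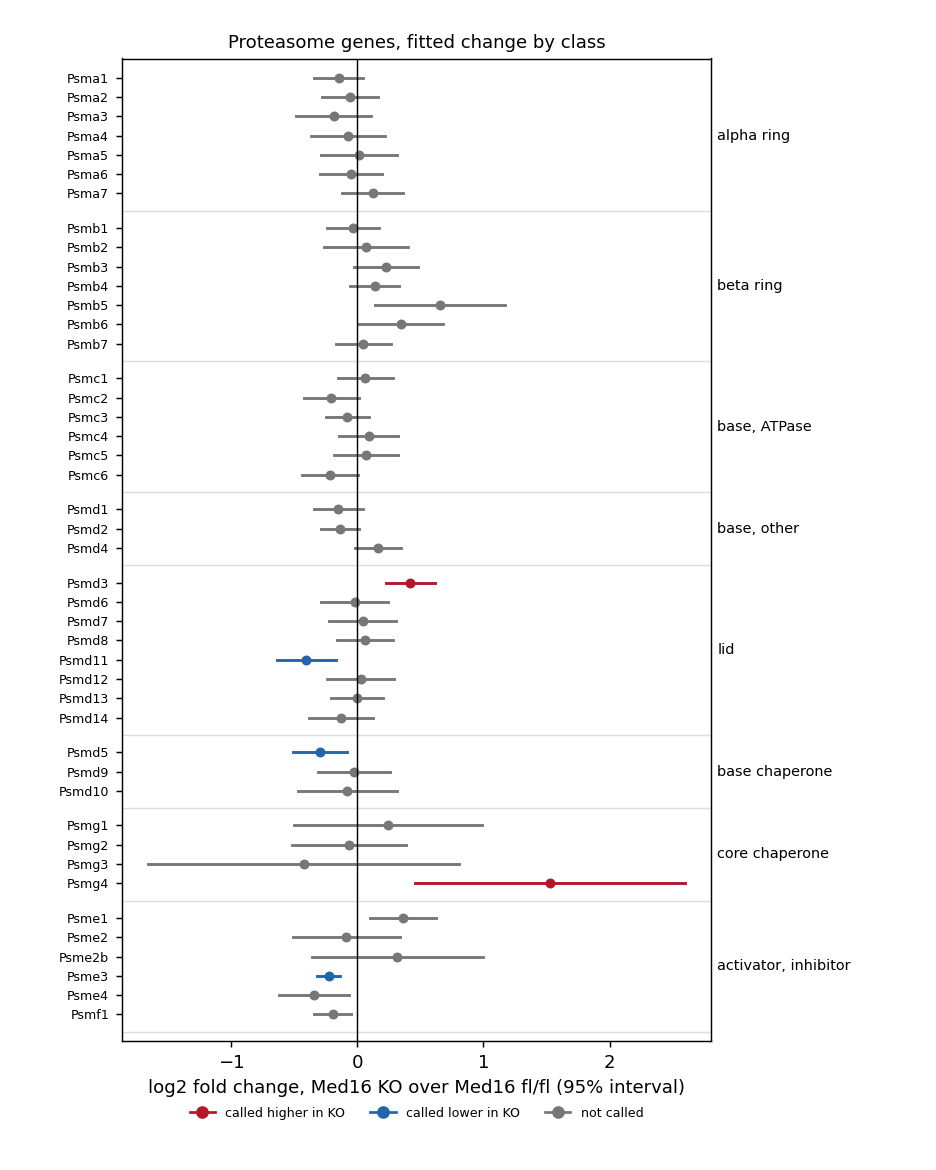
Fitted log2 fold change of Med16 KO over Med16 fl/fl (horizontal axis) with its 95% interval for the 44 proteasome genes tested, by class (n = 2 libraries per genotype). Red marks genes called higher, blue genes called lower and grey genes not called; the points of the alpha ring and base lie close to 0, while Psmd3 and Psmd11 of the lid lie on opposite sides.

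The alpha ring, which gates entry to the core, held 7 tested genes with log2 fold changes between -0.19 and 0.12 and a median of -0.06, against a median of 0.02 over all genes tested. Psma1, its most abundant member, stood at 107 and 124 CPM in KO libraries, against 128 and 128 CPM in fl/fl libraries. The log2 fold change of Psma1 was -0.15 (SE 0.09, adjusted p = 0.31), so both KO libraries were lower without a call. It was at -0.27 without KO library 2, at -0.06 without KO library 1 and at -0.02 with a GC content offset (adjusted p = 0.933). That offset takes out of each library any trend of its levels with the base composition of transcripts. A genotype difference that runs with GC content is taken out too, whatever its source. Psma3 had the alpha ring's largest change in size, with 48.3 and 41.6 CPM in KO, against 48.8 and 53.5 CPM in fl/fl (log2 fold change -0.19, SE 0.14, adjusted p = 0.41). The other alpha genes, Psma2, Psma4, Psma5, Psma6 and Psma7, had adjusted p values between 0.525 and 0.965. Psma8, an alpha subunit of the testis, had 0 and 1 counts in KO libraries and 10 and 4 counts in fl/fl libraries and was not tested.

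In the beta ring 6 of 7 tested genes had a positive fitted log2 fold change, against 2 of 7 in the alpha ring. The difference between the rings was not tested, and with a GC content offset 5 of 7 alpha genes were positive and the alpha median was 0.05. Their median was 0.14, and their summed level was 492 and 479 CPM in KO, against 446 and 439 CPM in fl/fl. For the alpha ring the sums were 477 and 470 CPM in KO, against 494 and 494 CPM in fl/fl. Across the 14 tested core genes, edgeR and DESeq2 called 0; Psmb5 and Psmb6 had an unadjusted p under 0.05. Psmb5, the subunit with the chymotrypsin-like site, stood at 19.8 and 28.1 CPM in KO libraries, against 17.4 and 12.9 CPM in fl/fl libraries (log2 fold change 0.66, SE 0.24, adjusted p = 0.073). Both KO libraries lay above both fl/fl libraries, and the KO libraries were further apart than the fl/fl ones. Psmb5 was called with the replicate number as a block (0.65, adjusted p = 0.036). Libraries of the 2 genotypes share only that number, so calls under this block, here and below, rest on an arbitrary pairing. The log2 fold change of Psmb5 also varied with the libraries used. Its log2 fold change was 0.88 without KO library 1, 0.37 without KO library 2 and 0.45 without fl/fl library 2. With a GC content offset it was 0.45 and not called (adjusted p = 0.25). Psmb5 also has near-identical stretches in 3 other annotated genes, one of them 796 bases long with 98.9% identity, so reads may have been lost or split. Psmb6, the subunit with the caspase-like site, stood at 60.0 and 45.6 CPM in KO, against 44.0 and 39.0 CPM in fl/fl (0.35, SE 0.16, adjusted p = 0.14). It was at 0.52 without KO library 2, at 0.12 without KO library 1 and at 0.18 with a GC content offset (adjusted p = 0.524). Psmb7, the subunit with the trypsin-like site, stood at 88.5 and 91.2 CPM in KO, against 91.3 and 82.5 CPM in fl/fl (0.05, SE 0.10, adjusted p = 0.81). The noncatalytic Psmb4, the most abundant beta gene in KO and level with Psmb1 in fl/fl, had 115 and 108 CPM in KO and 98.7 and 104 CPM in fl/fl (0.14, SE 0.09, adjusted p = 0.35). Psmb1, Psmb2 and Psmb3 had log2 fold changes of -0.04, 0.07 and 0.23 and were not called. Psmb11, the beta subunit of thymus cortex, had 0 and 8 counts in KO and no counts in fl/fl. Over all core genes the median was 0.03.

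**Figure D2:**
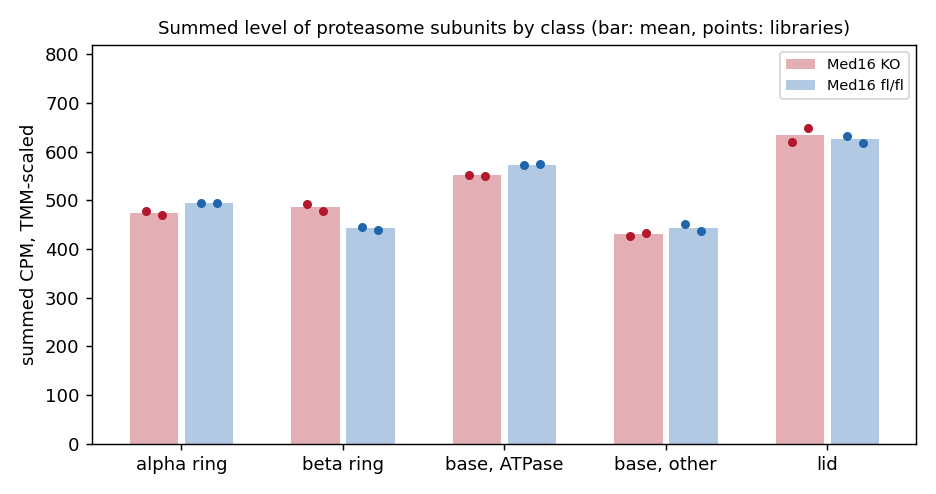
Summed TMM-scaled CPM (vertical axis) of the alpha ring, beta ring, base ATPase, other base and lid genes in Med16 KO and Med16 fl/fl; bars are means and points single libraries (n = 2 per genotype). The sums of the beta ring are higher in both KO libraries (492 and 479 CPM) than in both fl/fl libraries (446 and 439 CPM), and those of the lid overlap.

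In the base, edgeR and DESeq2 called 0 of 9 genes, 0 had an unadjusted p under 0.05, and the median log2 fold change was -0.08. The ATPase genes summed to 552 and 550 CPM in KO libraries, against 573 and 574 CPM in fl/fl libraries. Psmc3, the most abundant ATPase gene, stood at 138 and 142 CPM in KO, against 148 and 147 CPM in fl/fl (log2 fold change -0.08, SE 0.08, adjusted p = 0.56). Psmc6 had the largest ATPase change, with 89.6 and 77.8 CPM in KO, against 94.99 and 99.3 CPM in fl/fl (-0.21, SE 0.10, adjusted p = 0.18). Psmc2 was close to it at -0.21 (adjusted p = 0.19), and Psmc1, Psmc4 and Psmc5 lay between 0.06 and 0.09. Psmc2 and Psmc6 were at -0.31 and -0.33 without KO library 1, and at -0.14 and -0.13 without KO library 2. With a GC content offset Psmc6 was at 0.03 (adjusted p = 0.901). Psmd2, a large scaffold that docks shuttle proteins, was the most abundant gene of the base, with 185 and 180 CPM in KO libraries, against 201 and 200 CPM in fl/fl libraries (-0.14, SE 0.07, adjusted p = 0.20). Psmd4, a ubiquitin receptor, pointed the other way, with 137 and 152 CPM in KO, against 134 and 124 CPM in fl/fl (0.16, SE 0.09, adjusted p = 0.23). It was at 0.23 without KO library 1, at 0.07 without KO library 2 and at 0.03 with a GC content offset (adjusted p = 0.873). Psmd1, the other scaffold, was at -0.15 and not called. For Psmd2 and Psmd4 the genotypes did not overlap, as was so for 22 of the 44 tested proteasome genes, against 57.6% of all genes tested. KO lay above in 9 of them and below in 13, against 29.4% and 28.2% of all genes tested.

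The lid held the only called genes among the 31 subunits, 1 in each direction, and its median log2 fold change was 0.01. Psmd3, a scaffold subunit of the lid, rose to 117 and 121 CPM in KO libraries, against 90.6 and 86.6 CPM in fl/fl libraries (log2 fold change 0.42, SE 0.09, adjusted p = 0.0043). The KO libraries lay close together and well above both fl/fl libraries. That call ended with a GC content offset (0.19, adjusted p = 0.20) and without fl/fl library 2 (0.38, adjusted p = 0.12). Psmd11, another lid scaffold, fell to 63.3 and 70.2 CPM in KO libraries, against 91.6 and 85.1 CPM in fl/fl libraries (-0.41, SE 0.11, adjusted p = 0.017). It stayed called with a GC content offset (-0.38, adjusted p = 0.030), and the call ended without fl/fl library 1 (-0.37, adjusted p = 0.24) or fl/fl library 2 (-0.47, adjusted p = 0.082). A near-identical annotated copy of Psmd11, A730017L22Rik, matches it over 1501 bases with 97.9% identity, so its reads may have been split or set aside. Psmd14, which cuts ubiquitin from substrates, had 60.7 and 63.6 CPM in KO and 72.5 and 63.5 CPM in fl/fl (-0.13, SE 0.12, adjusted p = 0.51), with overlapping genotypes. The remaining lid genes Psmd6, Psmd7, Psmd8, Psmd12 and Psmd13 lay between -0.02 and 0.06. The lid as a whole summed to 619 and 649 CPM in KO, against 633 and 618 CPM in fl/fl.

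**Figure D3:**
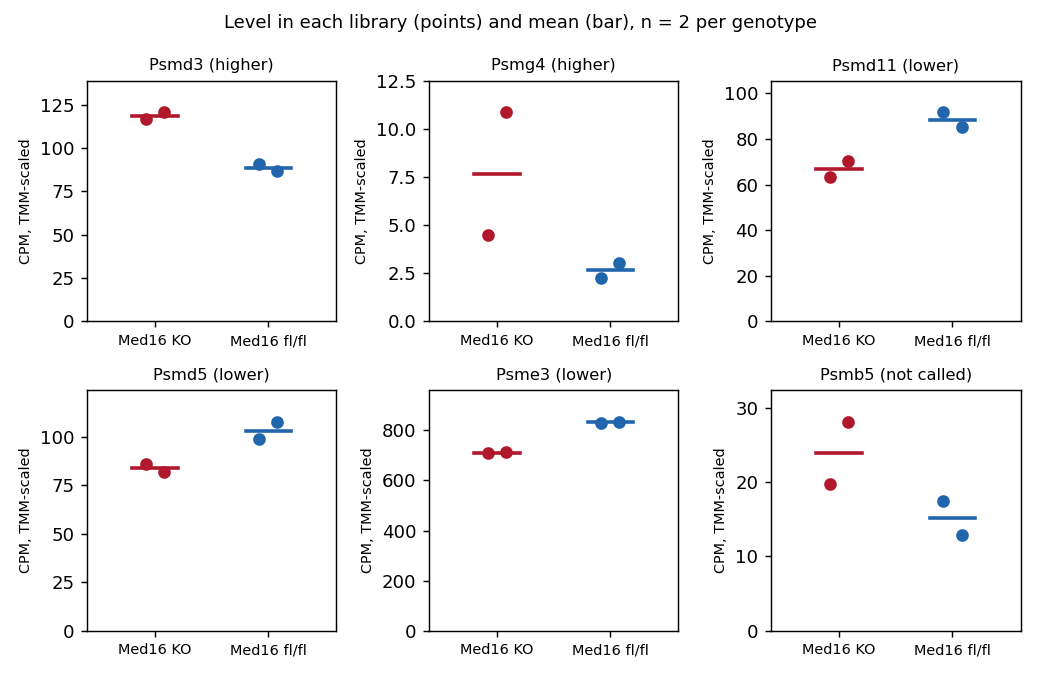
TMM-scaled CPM (vertical axes, each from 0) in each Med16 KO and Med16 fl/fl library for the 5 called proteasome genes and for Psmb5, which was not called; points are libraries and bars are means of 2. The Psme3 libraries of a genotype nearly coincide, near 711 CPM in KO and 832 CPM in fl/fl, while the KO libraries of Psmg4 and Psmb5 lie apart.

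Among the accessory genes, Psme3 was the most abundant and had the smallest adjusted p of all proteasome genes. It encodes a nuclear activator of the core that works without ATP or ubiquitin. Psme3 fell to 710 and 712 CPM in KO libraries, against 830 and 834 CPM in fl/fl libraries (log2 fold change -0.23, SE 0.04, adjusted p = 0.0014). The fall is small, but the libraries of a genotype differed from each other by far less than the genotypes did. It stayed called under every alternative tried but an assumed biological coefficient of variation of 0.2 (adjusted p = 0.75). Per kilobase of transcript its level averaged 267 CPM in KO and 312 CPM in fl/fl, above that of every subunit. Psme1 and Psme2 encode the interferon-inducible activator. Psme1 stood at 64.6 and 72.4 CPM in KO, against 51.7 and 54.96 CPM in fl/fl (0.36, SE 0.12, adjusted p = 0.052). It was called with library size as the only scaling (0.41, adjusted p = 0.026), with a stricter filter on counts (0.36, adjusted p = 0.048) and with the replicate number as a block (0.36, adjusted p = 0.038). Psme1 was at 0.43 without KO library 1, at 0.26 without KO library 2 and at 0.28 with a GC content offset (adjusted p = 0.149). Psme2 had 21.8 and 24.4 CPM in KO, against 27.3 and 21.8 CPM in fl/fl (-0.09, 95% interval -0.51 to 0.34, adjusted p = 0.82); it matches Psme2b over 794 bases with 99.4% identity, and both are uncertain. Psme2b was at 0.32 and not called. Psme4, an activator known for the breakdown of acetylated histones, had 74.0 and 106 CPM in KO, against 113 and 116 CPM in fl/fl (-0.35, SE 0.13, adjusted p = 0.081). Its KO libraries lay far apart: the value was -0.12 without KO library 1 and -0.64 without KO library 2. Psme4 was called with no filter (-0.37, adjusted p = 0.0038) and with the replicate number as a block (-0.36, adjusted p = 0.0055). Psmf1, which encodes an inhibitor of the core in vitro, had 187 and 188 CPM in KO, against 218 and 211 CPM in fl/fl (-0.19, SE 0.07, adjusted p = 0.064). DESeq2 called it lower (-0.21, adjusted p = 0.044), as did the fits with no filter (-0.22, adjusted p = 0.034), with a GC content offset (-0.26, adjusted p = 0.018) and with a transcript length offset (-0.21, adjusted p = 0.043). It was at -0.20 without KO library 1 and at -0.21 without KO library 2.

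The assembly chaperones were split. Psmd5, a chaperone of base assembly, fell to 86.1 and 82.1 CPM in KO libraries, against 98.7 and 108 CPM in fl/fl libraries (log2 fold change -0.30, SE 0.10, adjusted p = 0.0497). This is at the threshold: the call ended with a GC content offset (-0.17, adjusted p = 0.28), with library size as the only scaling (-0.24, adjusted p = 0.11), with a transcript length offset (-0.27, adjusted p = 0.070), and without fl/fl library 1 (-0.37, adjusted p = 0.15) or fl/fl library 2 (-0.24, adjusted p = 0.52). The other base chaperones, Psmd9 and Psmd10, were at -0.03 and -0.08 and not called. Psmg4, one of the chaperones of core assembly, had 32 and 74 counts in KO libraries and 16 and 21 counts in fl/fl libraries, or 4.49 and 10.9 CPM in KO against 2.27 and 3.05 CPM in fl/fl. It was called higher (1.53, SE 0.50, adjusted p = 0.046), although the KO libraries lay further from each other than KO library 1 did from fl/fl. Without KO library 2 the change was 0.74 (adjusted p = 0.32), and the call also ended without fl/fl library 1 (1.32, adjusted p = 0.26) or 2 (1.74, adjusted p = 0.11), with a GC content offset (1.37, adjusted p = 0.086) and with a transcript length offset (1.47, adjusted p = 0.055). Psmg2, the most abundant core chaperone gene of this family, had 23.7 and 18.1 CPM in KO, against 22.7 and 21.2 CPM in fl/fl (-0.07, SE 0.21, adjusted p = 0.88). Psmg1 had 82 and 45 counts in KO and 52 and 55 in fl/fl, and Psmg3 had 26 and 12 in KO and 28 and 23 in fl/fl; neither was called, with 95% intervals too wide to exclude a 1.5-fold change.

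Levels per kilobase of transcript let the subunits be set against each other. The core holds its own subunits in equal number, and so does the regulatory particle. Equal levels are not implied between genes of the core and genes of the regulatory particle. In the 31 subunits the SD of the log2 level per kilobase was 0.59 and 0.60 in KO libraries, against 0.56 and 0.60 in fl/fl libraries. Levels of the subunits were thus about as unequal in both genotypes. The median was 53.8 and 54.2 CPM per kilobase in KO, against 52.8 and 51.8 in fl/fl. The highest subunit was Psmd4 in KO library 1, at 103 CPM per kilobase, and Psma1 in the other libraries, at 115 in KO library 2, against 118 in both fl/fl libraries. The lowest was Psmb5 in KO library 1, at 26.04, and Psma3 in KO library 2, at 22.5, against Psmb5 in both fl/fl libraries, at 22.9 and 16.97. Psmb5 and Psma3 have near-identical copies elsewhere that can take reads from them. Such stretches were found for other subunits too, among them Psmd2 (2726 bases, 96.4% identity), Psma5 (952 bases, 98.6%) and Psmb3 (618 bases, 97.1%). The part of copies in the order of levels was not tested. This order depends on the annotated length: with all exons of a gene counted as its length, the lowest gene was Psmd11 or Psma3 and the highest Psmb4, Psmc3 or Psmc5, depending on the library.

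**Figure D4:**
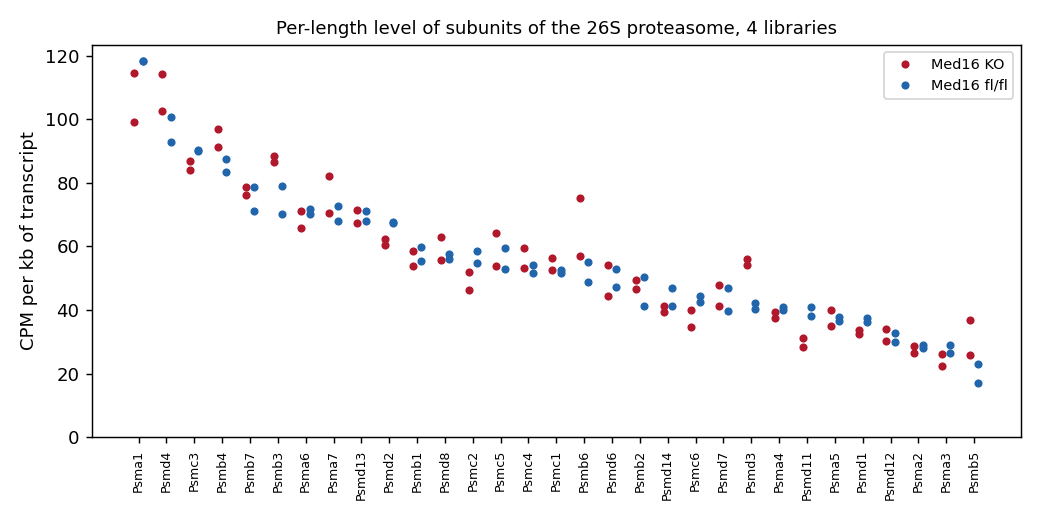
Level of the 31 tested subunits of core, base and lid in CPM per kilobase of transcript (vertical axis) in the Med16 KO and Med16 fl/fl libraries, ordered by the fl/fl mean; each point is 1 library. The order runs from Psma1 to Psmb5, and the genotypes overlap or lie close together for most genes, with Psmd3, Psmd11 and Psmb5 apart.

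The fitted changes of the subunits followed the base composition of their transcripts. Across the 31 subunits, which share libraries and are not independent replicates, Spearman's correlation coefficient between the log2 fold change and GC content was 0.75, against 0.31 over the 12844 annotated genes tested. Those include genes of low count, whose fold changes vary more by sampling, which can lower a coefficient. No comparison was made with genes of like level. The coefficients therefore do not show that a tie to GC content or length is particular to the subunits. Psmd3, with a GC content of 58.3%, Psmb5 with 57.1% and Psmb6 with 55.8% had the 3 largest positive changes, and Psmc6 with 37.0% had one of the larger negative ones. With a GC content offset the coefficient was 0.11, the median size of the log2 change was 0.06 in place of 0.09, and the range ran from -0.38 for Psmd11 to 0.45 for Psmb5. Psmd11, with a GC content of 49.1%, was then the only subunit called. Under that offset the alpha ring's median was 0.05 in place of -0.06 and the beta ring's 0.09 in place of 0.14, so the rings no longer differed in sign. The offset takes out any trend with GC content, so a fall of the coefficient was built in. What ties the changes to GC content was not tested. A call that ended with the offset does not tell whether the change was technical or biological. The coefficient with transcript length was -0.60, against -0.09 over all annotated genes tested, and with a length offset that with GC content was 0.72.

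Promoter windows were at hand for 38 of the 46 genes, in 41 windows of the 250 bases before the gene start (RefSeq, GRCm38.p6). Those without a window were Psma8, Psmb1, Psmb2, Psmb7, Psmc3, Psmd3, Psmd7 and Psmg2, so the called gene Psmd3 was not searched. The windows were searched on both strands for the core of the antioxidant response element, TGACNNNGC, which the Nfe2l1 product recognises, for the NF-Y box CCAAT and for the GC box GGGCGG. The first was in 4 of 28 windows of core, base and lid genes (14.3%), against 10.2% of all 32851 windows in the table; these were Psmb5, Psmb6, Psmc6 and Psmd12. CCAAT was in 39.3% of the 28 windows, against 33.8% of all, and GGGCGG in 50.0%, against 32.7% of all. A match is a description of letters and not a site. The 100 bases before the start are printed for Psmb5 and Psmb6, the beta genes with the largest fitted changes, chosen after their values were seen, with TGACNNNGC in capitals, and for the called genes Psme3, with the NF-Y box read from the other strand in capitals, Psmd11, with the GC box in capitals, and Psmg4, with the GC box read from the other strand in capitals. The windows are chr14:54617996-54618095 on the minus strand for Psmb5 and, on the plus strand, chr11:70525257-70525356 for Psmb6, chr11:101316113-101316212 for Psme3, chr11:80428515-80428614 for Psmd11 and chr13:34162864-34162963 for Psmg4.
Psmb5: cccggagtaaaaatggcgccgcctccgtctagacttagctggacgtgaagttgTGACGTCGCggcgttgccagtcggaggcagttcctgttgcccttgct
Psmb6: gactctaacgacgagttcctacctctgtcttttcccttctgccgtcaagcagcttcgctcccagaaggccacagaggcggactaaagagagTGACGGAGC
Psme3: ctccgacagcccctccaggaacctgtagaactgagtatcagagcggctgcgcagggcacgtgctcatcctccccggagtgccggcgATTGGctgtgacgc
Psmd11: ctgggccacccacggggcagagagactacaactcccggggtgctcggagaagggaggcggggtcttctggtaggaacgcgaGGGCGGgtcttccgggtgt
Psmg4: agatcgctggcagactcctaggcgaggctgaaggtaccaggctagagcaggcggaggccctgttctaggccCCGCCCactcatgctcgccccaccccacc

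Other genes of the ubiquitin-proteasome system were read from 6 lists; beside their counts stand the 8.50% of all genes tested that were called higher and the 9.89% called lower. The interferon-inducible catalytic genes take the place of Psmb5, Psmb6 and Psmb7 in the immunoproteasome, and 1 of 3 was called. Psmb8, the counterpart of Psmb5, rose to 36.0 and 48.0 CPM in KO libraries, against 24.9 and 29.3 CPM in fl/fl libraries (log2 fold change 0.63, SE 0.18, adjusted p = 0.025). That call ended with a GC content offset (0.46, adjusted p = 0.12), and without fl/fl library 1 (0.50, adjusted p = 0.28), fl/fl library 2 (0.74, adjusted p = 0.064) or KO library 2 (0.40, adjusted p = 0.078). Psmb9, the counterpart of Psmb6, had 25.4 and 27.5 CPM in KO, against 19.3 and 15.5 CPM in fl/fl (0.61, SE 0.21, adjusted p = 0.053). It was called with library size as the only scaling (0.66, adjusted p = 0.035) and with the replicate number as a block (0.61, adjusted p = 0.036). Psmb9 was at 0.65 without KO library 1, at 0.53 without KO library 2 and at 0.45 without fl/fl library 2. With a GC content offset it was at 0.45 (adjusted p = 0.167). Psmb10, the counterpart of Psmb7, had 17.6 and 24.4 CPM in KO, against 15.01 and 18.7 CPM in fl/fl (0.32, SE 0.24, adjusted p = 0.41). Per kilobase, the ratio of Psmb8 to Psmb5 was 0.848 and 0.798 in KO libraries, against 0.668 and 1.06 in fl/fl libraries, which overlap. The ratio of Psmb9 to Psmb6 was 0.250 and 0.356 in KO, against 0.258 and 0.235 in fl/fl, and that of Psmb10 to Psmb7 was 0.176 and 0.237 in KO, against 0.146 and 0.201 in fl/fl. Neutrophil markers were higher in the same libraries, by a factor of 1.43 in their sum; their part in these levels was not tested.

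In a list of 5 genes that regulate proteasome genes or the place of proteasomes in the cell, 2 were called lower, against 9.89% of all genes tested, and 0 higher. Ngly1, the enzyme that removes sugars from the Nfe2l1 product so that it can act, fell to 28.4 and 25.2 CPM in KO libraries, against 39.1 and 39.4 CPM in fl/fl libraries (log2 fold change -0.55, SE 0.17, adjusted p = 0.029). Akirin2, which carries proteasomes into the nucleus, fell to 60.1 and 60.9 CPM in KO, against 76.02 and 84.5 CPM in fl/fl (-0.41, SE 0.11, adjusted p = 0.020). Both calls ended with a GC content offset (-0.38, adjusted p = 0.14 for Ngly1; -0.33, adjusted p = 0.065 for Akirin2). Without fl/fl library 1 they were at -0.57 (adjusted p = 0.21) and -0.50 (adjusted p = 0.067), and without fl/fl library 2 at -0.56 (adjusted p = 0.26) and -0.34 (adjusted p = 0.36), for Ngly1 and Akirin2 in that order. Ddi2, the protease that activates the Nfe2l1 product and the most abundant gene of this list, was at -0.27 (adjusted p = 0.066). It was called with no filter (-0.30, adjusted p = 0.040), and was at -0.35 without KO library 2 and at -0.22 without KO library 1. Nfe2l1 itself had 63.2 and 82.2 CPM in KO, against 57.3 and 63.7 CPM in fl/fl (0.26, SE 0.14, adjusted p = 0.20), with overlapping genotypes.

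Of 5 proteasome-bound proteins, 1 was called lower, against 9.89% of all genes tested. Usp14, a deubiquitinase of the regulatory particle, fell to 103 and 80.9 CPM in KO libraries, against 133 and 134 CPM in fl/fl libraries (log2 fold change -0.54, SE 0.11, adjusted p = 0.0024). With a GC content offset it was at -0.32 (adjusted p = 0.059). Uchl5, Ube3c, Txnl1 and Ecpas had log2 fold changes between -0.37 and -0.21 and were not called. Ecpas was near the threshold (adjusted p = 0.0515). DESeq2 called 2 of the 5, against 17.9% of all genes, and 3 had an unadjusted p under 0.05, against 30.4%. In all 5 both KO libraries lay below both fl/fl libraries, as in 28.2% of all genes tested. Txnl1 was called with a transcript length offset (-0.28, adjusted p = 0.035). It was at -0.24 without KO library 1 and at -0.03 with a GC content offset (adjusted p = 0.897). In a separate list of shuttle and unfoldase genes, edgeR and DESeq2 called 0 of 8 tested. There 2 had an unadjusted p under 0.05, against 30.4% of all genes tested. Vcp of that list, the unfoldase that extracts proteins for degradation, had 307 and 302 CPM in KO, against 308 and 302 CPM in fl/fl.

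Among 5 ubiquitin genes, counting the activating enzyme gene Uba1, 1 was called. Rps27a, which encodes ubiquitin fused to a ribosomal protein, stood at 131 and 331 CPM in KO libraries, against 138 and 103 CPM in fl/fl libraries (log2 fold change 0.94, SE 0.27, adjusted p = 0.023). The genotypes overlapped, the change was 0.11 without KO library 2 (adjusted p = 0.41), and DESeq2 did not call it (adjusted p = 0.39). Ubb, the most abundant ubiquitin gene, had 2022 and 2079 CPM in KO, against 2139 and 2113 CPM in fl/fl (-0.05, SE 0.03, adjusted p = 0.32); with a GC content offset it was called lower (-0.17, adjusted p = 0.0012), and likewise with a transcript length offset (-0.13, adjusted p = 0.0088). Of the other subunits and chaperones, edgeR and DESeq2 called 0 of 3, and 0 had an unadjusted p under 0.05: Adrm1, a ubiquitin receptor of the base, Sem1 of the lid and Pomp, which matures the core, lay between -0.05 and 0.11. Without KO library 1 Adrm1 was at -0.39, and without KO library 2 at 0.20: its KO libraries, at 79.1 and 52.4 CPM, lay on either side of the fl/fl libraries, at 69.2 and 67.1 CPM.

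**Figure D5:**
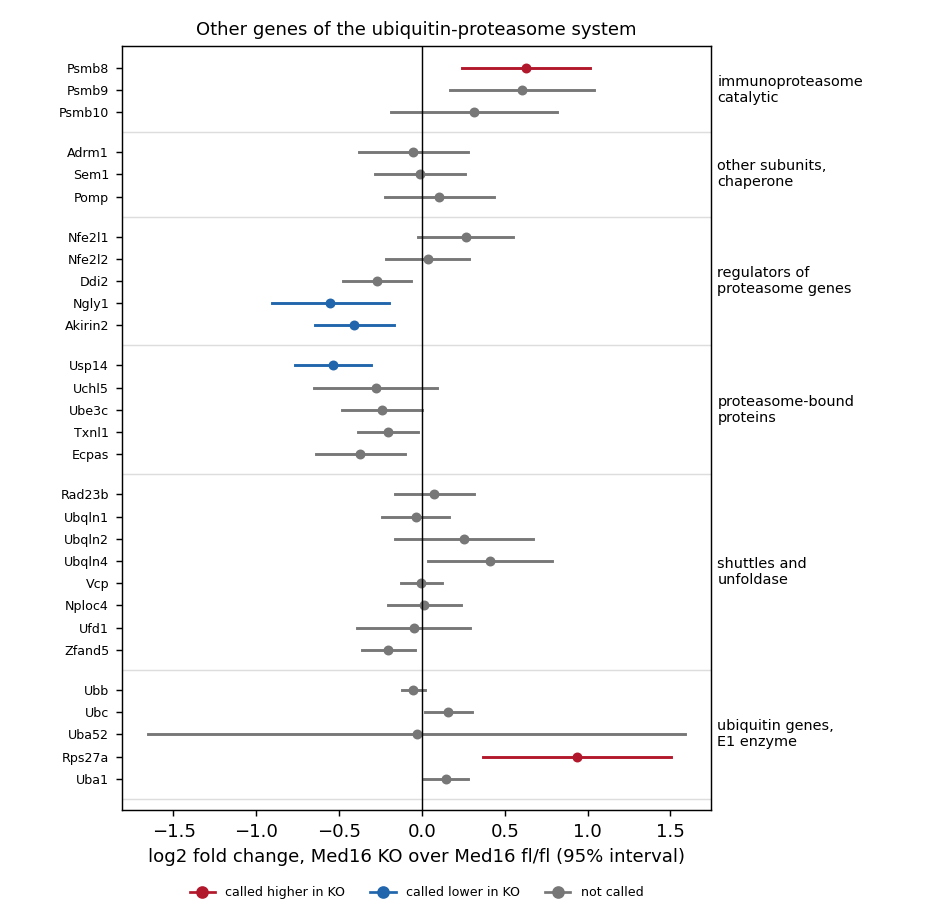
Fitted log2 fold change of Med16 KO over Med16 fl/fl (horizontal axis) with its 95% interval for 29 other genes of the ubiquitin-proteasome system, by list (n = 2 libraries per genotype). Psmb8 and Rps27a were called higher (red), Ngly1, Akirin2 and Usp14 lower (blue), and the others were not called (grey).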

How the data were processed

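Each library has a deposited table of raw counts by gene. The submitters' processing notes name build GRCm39 and the tools HTSeq 0.12.4, HISAT2 2.1.0, FastQC 0.11.7, HOMER and DESeq2; of strand setting and annotation release, each is not given in the sources used here. The 5 rows that name no gene were left out; reads assigned to no feature made up 35.8% to 36.7% of all reads, and reads without a unique alignment 23.6% to 26.4%. Counts were fitted in R 4.3.3 with edgeR 4.0.16 (filterByExpr, TMM, quasi-likelihood test on genotype, two-sided, Benjamini-Hochberg adjustment over 13052 genes, called at an adjusted p under 0.05), after a test on simulated data. The common biological coefficient of variation was 0.125. The SE is the size of the log2 fold change over the square root of F. Alternatives included DESeq2 1.42.0. Transcript length (median of GENCODE M21 basic transcripts), GC content, overlapping genes and near-identical stretches (at least 100 bases, 95% identity) came from build GRCm38, so no coordinates are joined to the counts; 98.4% of genes tested matched. Members and lists were chosen with earlier results of these data known. Every proteasome gene could be named; from other lists, called genes with the 3 smallest adjusted p and the most abundant one were, and further ones were chosen after their values were seen. Paaf1 was not analysed here, and 1 gene of the shuttle and unfoldase list is not reported here. Without known strand, reads in antisense overlaps cannot be told apart: for Psmb7 (Nek6, 11.8% of exon bases), Psmd13 (Sirt3, 10.1%), Psmc3 (Slc39a13, 8.25%) and Psmd9 (Gm26745, 25.5%).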

Additional observations from a re-analysis of the deposited data

How the results depend on the processing

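The counts of proteasome genes called higher and lower were 2 and 3. In that order they were 3 and 2 scaled by library size alone, 2 and 5 with no filter, 3 and 3 with the stricter filter, 2 and 3 with DESeq2 size factors in edgeR, 2 and 4 with DESeq2, 4 and 4 with the replicate block, 0 and 3 with the GC offset, 1 and 3 with the length offset, 1 and 0 with an assumed biological coefficient of variation of 0.2, and 0 to 5 and 1 to 6 with 1 library left out. There, the lone library is assumed to vary like the other genotype. The chi-square per degree of freedom between libraries of a genotype, higher where they differ more, was 6.8 in KO and 2.8 in fl/fl. The main fit uses the same estimate of spread for both genotypes. Library numbers share only a number across genotypes (correlation of deviations -0.0078). With the replicate block 2767 genes in all were called. The core median of 0.03 was 0.085 scaled by library size alone, 0.069 with the GC offset and -0.046 with the length offset, and -0.026 to 0.055 with 1 library left out. The base median of -0.08 was -0.024, -0.019 and -0.144 under those 3, -0.104 with no filter and -0.092 with DESeq2, and -0.115 to -0.068 with 1 library left out. The lid median of 0.01 was -0.058 with the length offset, and -0.058 to 0.020 with 1 library left out. Scaled by library size alone the lid median was 0.066, and the median over all genes was 0.07 in place of 0.017. The shifts of core, base and lid under that scaling are thus common to all genes. With no filter and with DESeq2 the median over all genes was -0.008 and 0.003, so it moved down as the base median did. For the other settings the cause was not tested. Med16 stayed called in every fit. Over all genes, 2400 were called, against 620 with the assumed coefficient of variation, and 1158 to 3998 with 1 library left out; the share of calls that were higher was 46.2%, and 56.4% scaled by library size alone. Depth limits Psmg4, with 16 to 74 counts a library, and Psmg3, with 12 to 28.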
